A study of Mus musculus with 12 samples.

Results

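A set of 10 transcripts of axons and neurons was followed through laser-captured white matter of the mouse spinal cord. It held the neurofilament subunits Nefl, Nefm and Nefh, the related intermediate filament Ina, the growth-associated transcripts Stmn2 and Gap43, the abundant neuronal proteins Uchl1 and Tubb3, and the synaptic transcripts Snap25 and Syt1. The members were chosen by name, by mapping each Ensembl gene of the count table to its symbol, and all 10 were found among 46078 genes. All 10 also passed the filter on low counts, which kept 15866 genes for testing. The tissue was the ventrolateral white matter of C57Bl6 mice in 4 groups of 3 libraries. These were naïve and injured tissue of young mice and naïve and injured tissue of middle-aged mice, and the methods give 6 weeks as the young age and 8 months as the middle age. Injured mice had received lysolecithin, a detergent-like lipid that strips myelin, by injection into that tract 72 h earlier, and naïve mice had no lesion. Sections stained with cresyl violet were cut by laser, and the RNA was amplified before sequencing. RNA of 5 mice was pooled, for each condition in the design text and for each data point in a legend of the paper, and the labels do not say whether the pools of a group held different mice, so p-values here measure the spread between libraries, which may be technical.

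White matter carries long axons wrapped in myelin and holds few neuronal cell bodies. Most messenger RNA of a neuron is in its cell body, and a smaller pool is carried into the axon for local translation. Neurofilaments are the intermediate filaments that set axon calibre, and their transcripts are a standard readout of large projection neurons. Growth-associated transcripts such as Gap43 are known to be induced when an axon is cut or regrows.

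Nefl (chr14:68083863-68089095, plus strand, GRCm38) and Nefm (chr14:68082590-68124846, minus strand) lie on opposite strands, and in the annotation used here they share 1108 exonic bases, or 32.8% of Nefl and 19.2% of Nefm. The strand setting of the counting was not given in the sources used here, so reads in that stretch cannot be assigned to either gene with certainty. Ina shares 14.1% of its exonic bases with Nt5c2 on the other strand, which had 354 to 546 counts per library against 131 to 671 for Ina. The part of this overlap in the Ina counts was not tested. Uchl1 shares 18.1% with its antisense RNA Uchl1os, which had 5 to 31 counts per library. At most 3.21% of the 31-base words of a member also occurred in another gene, the highest share being that of Tubb3 with other tubulins.

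RefSeq promoter windows, from 250 bases before to 50 bases after the transcription start on GRCm38.p6, were at hand for 4 of the 10 members. Those of Ina (chr19:47014431-47014730, plus strand) and Tubb3 (chr8:123411303-123411602, plus strand) are printed because each was the other's nearest match among the members over the 12 libraries. That of Syt1 (chr10:109010926-109011225, minus strand, the upstream of its 2 listed starts) is printed because its levels departed from those of the other members. Capitals mark GGGCGG, the core of a GC box, on either strand.
Ina: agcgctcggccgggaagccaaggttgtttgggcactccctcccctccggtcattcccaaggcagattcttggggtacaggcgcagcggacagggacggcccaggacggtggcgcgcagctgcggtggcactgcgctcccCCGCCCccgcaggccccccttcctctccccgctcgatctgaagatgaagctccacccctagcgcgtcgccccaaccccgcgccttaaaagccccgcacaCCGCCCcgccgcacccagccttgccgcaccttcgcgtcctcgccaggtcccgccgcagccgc
Tubb3: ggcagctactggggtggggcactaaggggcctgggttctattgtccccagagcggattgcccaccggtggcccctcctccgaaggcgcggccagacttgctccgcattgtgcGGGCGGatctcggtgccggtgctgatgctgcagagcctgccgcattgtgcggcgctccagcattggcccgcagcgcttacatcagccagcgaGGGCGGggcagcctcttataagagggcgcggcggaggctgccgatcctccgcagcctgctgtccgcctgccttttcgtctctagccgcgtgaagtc
Syt1: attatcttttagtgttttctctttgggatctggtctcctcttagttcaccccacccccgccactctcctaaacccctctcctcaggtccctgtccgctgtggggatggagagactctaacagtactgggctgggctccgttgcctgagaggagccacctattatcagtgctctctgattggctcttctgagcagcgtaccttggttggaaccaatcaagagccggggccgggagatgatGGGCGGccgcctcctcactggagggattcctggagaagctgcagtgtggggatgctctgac
GGGCGG occurred 2 times in the Ina window, 2 times in the Tubb3 window and 1 time in this Syt1 window, and was not found in the Uchl1 window (chr5:66675871-66676170, plus strand). It occurred in 35.7% of all 32851 RefSeq promoter windows. TATAAA, the core of a TATA box, was not found in any of the 5 windows of these 4 members and occurred in 13.6% of all windows. The windows of Ina and Tubb3 were 71.7% and 67.3% G or C, against 56.7% for this Syt1 window and 50.7% for Uchl1.

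Each library held 9834447 to 12807437 counts. Levels are given as CPM, the counts of a gene scaled to a common library size after trimmed mean of M-values (TMM) adjustment, unless stated otherwise. Taking 3 counts as the floor of detection, the floor lay at 0.22 to 0.323 CPM. The members together took between 0.104% and 0.469% of a library's counts. No library repeated another of its group within sampling noise. Every member was well above the floor in every library, the lowest counts being those of Syt1 in middle-aged injured tissue, at 63 to 70. As a share of the library total, the 68 counts of middle-aged injured 1 came to 5.85 CPM, with a 95% Clopper-Pearson interval of 4.54 to 7.41. Such intervals cover counting error only, since amplified reads are not independent molecules.

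To ask how axonal and neuronal RNA changed in the lesion, injured tissue was compared with naïve tissue within each age. Neurofilament, Uchl1 and Snap25 transcripts fell at both ages, and Stmn2 fell by less. Ina fell about as much as Uchl1 in young mice (log2 -1.42 and -1.46) and by less in the middle-aged (-0.89 against -1.59). Tubb3 was called lower in young mice only and Syt1 in the middle-aged only, and Gap43 alone among the members rose. In young mice 9 of the 10 members changed (edgeR quasi-likelihood test, Benjamini-Hochberg adjusted p under 0.05), 8 lower and 1 higher, where 54.6% of all genes tested changed, 26.3% lower and 28.3% higher. In middle-aged mice 9 of 10 also changed, 8 lower and 1 higher, where 58.5% of all genes changed, 29.3% lower and 29.2% higher. The median log2 fold change of the 10 members was -1.44 in young and -1.61 in the middle-aged, against 0.00054 and -0.032 over all genes tested. The 3 injured and 3 naïve libraries did not overlap for 8 members in young mice, 7 of them lower, and for 9 in the middle-aged, 8 of them lower. Over all genes 32.2% did not overlap with injury lower in young mice and 29.7% in the middle-aged, and 35.0% and 31.5% with injury higher. Fewer axons or neurons in the captured area, less RNA in each and a larger share of RNA from other cells cannot be told apart in such bulk samples.

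**Figure D1:**
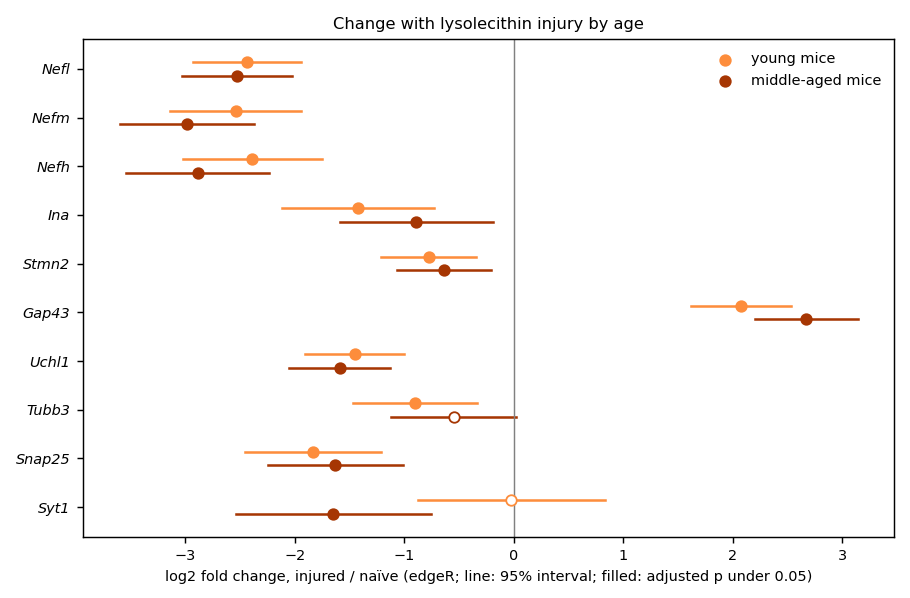
Log2 fold change of each member between injured and naïve libraries, in young and middle-aged mice (edgeR, 3 libraries per group; lines, 95% intervals; filled points, adjusted p under 0.05). The neurofilament subunits lie between -2.39 and -2.99, Gap43 lies at 2.07 and 2.67, and the open points are Syt1 in young mice and Tubb3 in the middle-aged.

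The neurofilament subunits showed the largest falls of the members. Nefl, the light subunit on which filaments assemble, stood at 1271, 1037 and 574 CPM in the young naïve libraries and at 184, 166 and 183 CPM in the young injured libraries. In middle-aged mice it stood at 804, 1156 and 957 CPM in naïve and at 170.1, 149 and 186 CPM in injured tissue. The lowest naïve library was thus above the highest injured library by a wide margin at both ages, and the fold changes were -2.44 ± 0.231 (log2, SE; adjusted p = 6.68e-07) in young and -2.53 ± 0.232 (adjusted p = 4.08e-07) in the middle-aged.

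Nefm, the medium subunit, was at 472, 357 and 203 CPM in young naïve and at 65.3, 45.8 and 66.6 CPM in young injured libraries. The middle-aged naïve libraries held 255, 478 and 394 CPM of Nefm, and the middle-aged injured libraries 49.9, 49.0 and 43.3 CPM. This was a fall of 5.81-fold in young mice (log2 fold change -2.54 ± 0.281, adjusted p = 3.10e-06) and of 7.93-fold in the middle-aged (-2.99 ± 0.287, adjusted p = 6.53e-07). Nefh, the heavy subunit of mature large axons, ran from 154 to 372 CPM in young naïve and from 38.8 to 62.0 CPM in young injured libraries, a log2 fold change of -2.39 ± 0.296 (adjusted p = 9.31e-06). In middle-aged mice Nefh ran from 223 to 421 CPM in naïve and from 37.7 to 46.7 CPM in injured libraries, a log2 fold change of -2.89 ± 0.303 (adjusted p = 1.52e-06). Of the genes tested in young mice, 1.16% to 1.64% had a more negative fold change than these subunits, and in the middle-aged 1.5% to 2.90%.

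Ina encodes alpha-internexin, an intermediate filament protein that joins neurofilaments in central axons. It was at 61.1, 31.3 and 20.0 CPM in young naïve and at 14, 11.1 and 16.9 CPM in young injured libraries, a log2 fold change of -1.42 ± 0.324 (adjusted p = 0.00186). In middle-aged mice it was at 20.0, 30.7 and 25.0 CPM in naïve and at 14.5, 14.9 and 11.3 CPM in injured libraries, a log2 fold change of -0.89 ± 0.325 (adjusted p = 0.0294). The groups did not overlap at either age, yet the middle-aged call was lost without any of 5 libraries (adjusted p = 0.0506 to 0.0996), which were middle-aged naïve 2 and 3 and middle-aged injured 1, 2 and 3, and with scaling by library totals alone (adjusted p = 0.052).

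**Figure D2:**
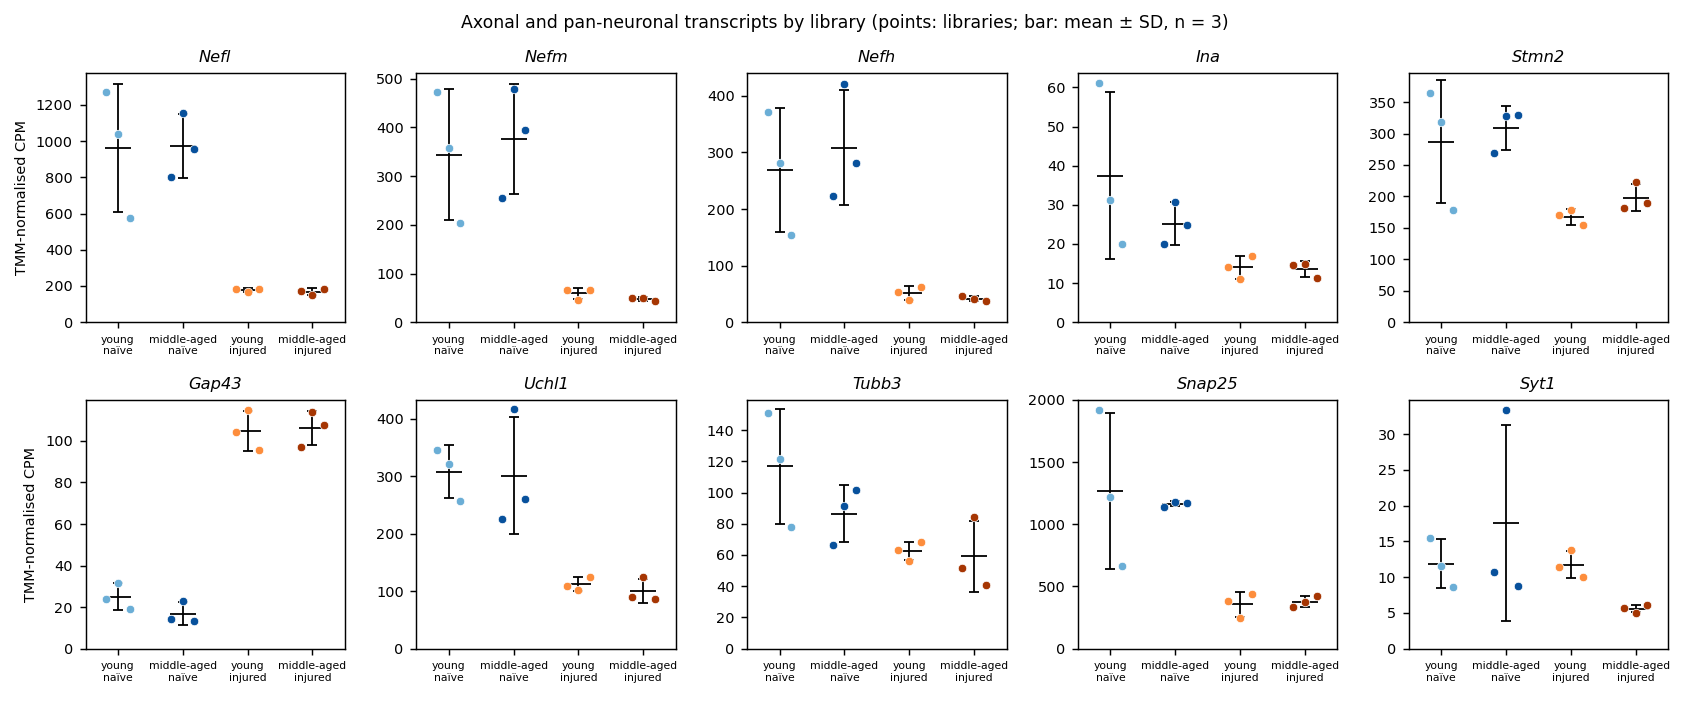
TMM-normalised CPM of each of the 10 members in each of the 12 libraries (points), with the mean and SD of each group of 3. Nefl, Nefm, Nefh, Ina, Uchl1 and Snap25 separate naïve from injured libraries at both ages with injury lower, Gap43 separates them with injury higher, and Syt1 has 1 middle-aged naïve library at 33.4 CPM above the rest.

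The growth-associated members moved in opposite directions. Gap43, a membrane protein of growth cones, was at 23.9, 31.8 and 18.9 CPM in young naïve and at 104, 115 and 95.5 CPM in young injured libraries. In middle-aged mice it rose from 14.2, 23.1 and 13.1 CPM to 97.3, 114 and 108 CPM. The fold changes were 4.21 in young mice (log2 2.07 ± 0.213, adjusted p = 1.44e-06) and 6.35 in the middle-aged (log2 2.67 ± 0.219, adjusted p = 1.38e-07), and every injured library exceeded every naïve library.

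Stmn2 encodes a microtubule regulator of growing axons. It was at 365, 318 and 178 CPM in young naïve and at 170.2, 179 and 154 CPM in young injured libraries. The naïve and injured libraries overlapped, since young naïve 3 lay just below young injured 2, and the log2 fold change was -0.77 ± 0.201 (adjusted p = 0.00456). In middle-aged mice the libraries did not overlap, at 269, 328 and 329.6 CPM in naïve and 182, 223 and 189 CPM in injured tissue, and the log2 fold change was -0.64 ± 0.201 (adjusted p = 0.0135). The middle-aged call was lost without middle-aged injured 1 (adjusted p = 0.0517).

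Uchl1 encodes a ubiquitin hydrolase that is among the most abundant neuronal proteins. It was at 346, 321 and 256 CPM in young naïve and at 109, 103 and 125 CPM in young injured libraries, a log2 fold change of -1.46 ± 0.212 (adjusted p = 4.49e-05). In middle-aged mice it was at 226, 417 and 261 CPM in naïve and at 90.2, 124 and 85.5 CPM in injured libraries, a log2 fold change of -1.59 ± 0.214 (adjusted p = 1.77e-05). Injured libraries were thus the lower at both ages without overlap.

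Tubb3, the neuronal beta-tubulin, was at 151, 121 and 77.6 CPM in young naïve and at 63.0, 56.3 and 68.1 CPM in young injured libraries, a log2 fold change of -0.90 ± 0.265 (adjusted p = 0.00973). Without young naïve 1 the adjusted p was 0.0606. In middle-aged mice the libraries overlapped, at 66.5, 91.2 and 102 CPM in naïve and 51.9, 84.6 and 40.7 CPM in injured tissue, and the log2 fold change of -0.55 ± 0.265 did not pass the test (adjusted p = 0.0887). It passed without middle-aged naïve 1 (adjusted p = 0.0448), without middle-aged injured 2 (adjusted p = 0.00877) and with no filter on low counts (adjusted p = 0.0179).

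Snap25, a membrane protein of the vesicle fusion machinery, was the member with the most counts in naïve tissue. It was at 1919, 1222 and 661 CPM in young naïve and at 380.4, 247 and 439 CPM in young injured libraries, a log2 fold change of -1.83 ± 0.293 (adjusted p = 0.000101). In middle-aged mice the naïve libraries were close together, at 1142, 1182 and 1167 CPM, and the injured libraries were at 331, 374 and 422 CPM, a log2 fold change of -1.63 ± 0.291 (adjusted p = 0.000238).

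Syt1, the calcium sensor of transmitter release, had the lowest counts of the members in 10 of 12 libraries and departed from the others. It was at 15.5, 11.6 and 8.60 CPM in young naïve and at 11.5, 13.7 and 10 CPM in young injured libraries. These overlapped fully, with a log2 fold change of -0.024 and a 95% interval from -0.879 to 0.831. In middle-aged mice the naïve libraries were at 10.7, 33.4 and 8.72 CPM and the injured libraries at 5.64, 5.03 and 6.04 CPM, and the log2 fold change was -1.65 ± 0.415 (adjusted p = 0.00344). Without middle-aged naïve 2, the library at 33.4 CPM, it was -0.79 (adjusted p = 0.0136). The same library held 85.4 CPM of Slc32a1, the vesicular transporter of inhibitory neurons, against 6.05 and 13.4 CPM in the other middle-aged naïve libraries. The other inhibitory markers were not raised there, with Gad1 at 11.9 to 12.4 CPM over the 3 libraries and Gad2 at 10 counts in that library against 25 and 22 in the others. The part of inhibitory neurons in the Syt1 value was not tested.

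To compare the members with the most abundant filament transcripts, each was also expressed per 100 reads of Nefl plus Nefm, and a second fit took those reads as the library size. Nefh was at 20.5 ± 0.769 reads (mean ± SD, n = 3) in young naïve and 21.6 ± 3.26 in young injured tissue, with log2 fold changes of 0.076 in young and -0.22 in the middle-aged (edgeR adjusted p = 0.799 and 0.467). Gap43 went from 2.03 to 44.8 reads per 100 in young and from 1.24 to 49.6 in the middle-aged, and Stmn2 from 22.2 to 71.5 and from 23.3 to 92.8. On this scale 7 of the 8 members read were higher with injury at each age. So were 89.3% of all genes in young mice and 89.5% in the middle-aged, with medians of 2.32 and 2.57 (log2), so the members' share lay near that of all genes. Gap43 lay above that median at both ages, at 4.47 and 5.32. Syt1 lay near it in young mice (2.42) and below it in the middle-aged (1.07), and Ina, Uchl1, Tubb3, Stmn2 and Snap25 lay below it at both ages, between 0.66 and 2.12. The call for Snap25 in young mice (0.66, adjusted p = 0.0388) was lost in 9 of 17 other settings, and that for Syt1 in the middle-aged (adjusted p = 0.0117) without middle-aged naïve 3 (adjusted p = 0.0844).

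**Figure D3:**
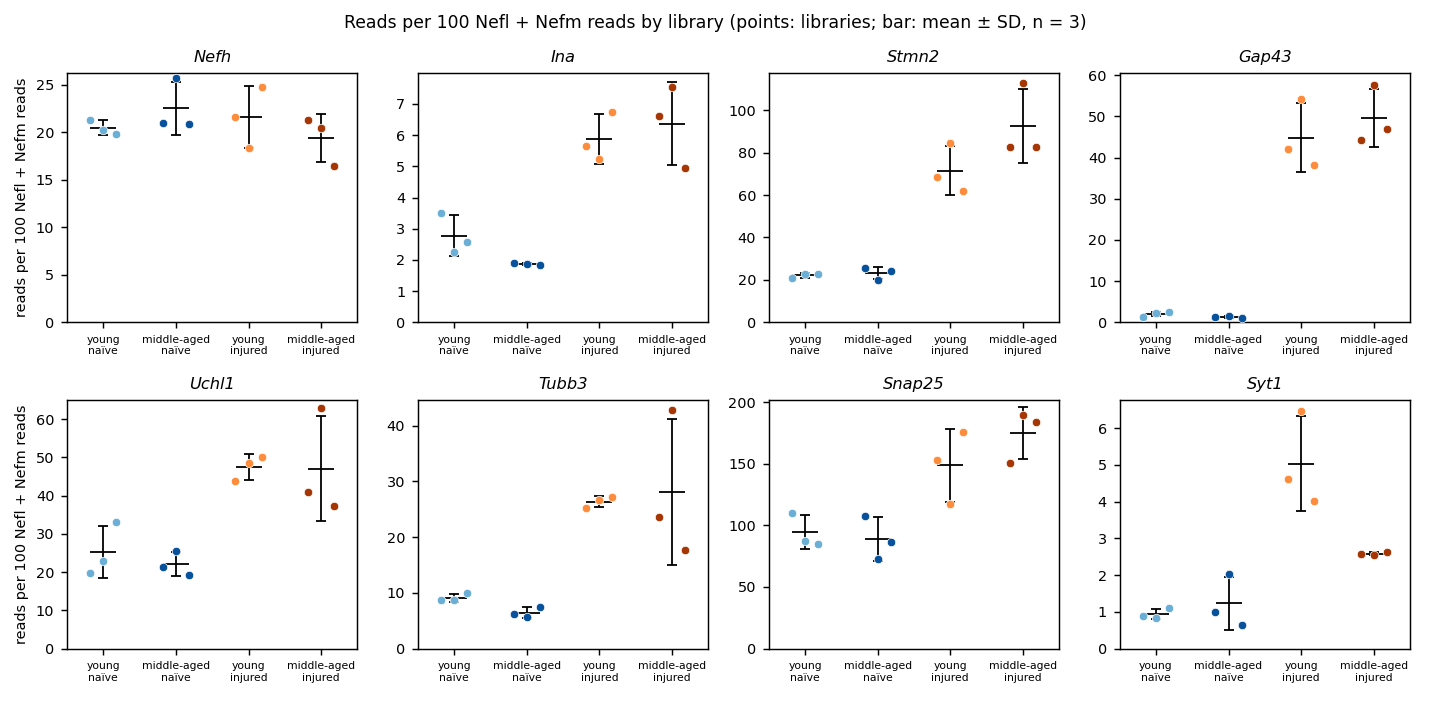
Reads of 8 members per 100 reads of Nefl plus Nefm in each library (points), with the mean and SD of each group of 3. Nefh stays near 20 in all 4 groups, while Gap43 is at or below 2.43 in every naïve library and at or above 38.2 in every injured library.

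Divided by exonic length in kilobases (CPM per kilobase, RPKM), the order of the members' levels differed between naïve and injured tissue. In young naïve tissue Nefl led at 284 ± 105 RPKM (SD, n = 3), followed by Uchl1 at 189 ± 28.4 and Snap25 at 187 ± 92.8, and neighbours among these 3 overlapped between libraries. Nefh, Tubb3, Nefm and Stmn2 followed at 51.2 to 67.5 RPKM, each overlapping the next, and then Gap43 (16.3 ± 4.27) and Ina (11.6 ± 6.56), which overlapped each other. Syt1 was lowest, at 1.43 ± 0.414 RPKM, without overlap with Ina. The middle-aged naïve order had the same 3 leaders and the same 3 last members. In young injured tissue Gap43 (68.9 ± 6.35 RPKM) and Uchl1 (68.8 ± 7.17) led and overlapped, and Nefl followed without overlap at 52.5 ± 2.98. In middle-aged injured tissue Gap43 (69.8 ± 5.5) again led, with Uchl1 (61.3 ± 13), Snap25 (55.3 ± 6.69) and Nefl (49.7 ± 5.54) following, each overlapping the next. Nefm and Nefh fell to 8.20 to 12.9 RPKM in injured tissue, and Syt1 was lowest in all 4 groups.

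Age was then compared within naïve and within injured mice. Neurofilament levels were close between ages in naïve tissue, with Nefl at 961 ± 355 CPM (SD, n = 3) in young and 972 ± 176 CPM in the middle-aged. None of the 10 members passed the test for age in naïve mice with edgeR or DESeq2, where 3.80% of all genes did with edgeR. The DESeq2 share of all genes was not taken for age or for the difference of injury effects. With edgeR 1 of 10, Gap43, had an unadjusted p under 0.05. The share of all genes under that unadjusted threshold was not taken in any comparison. Gap43 was lower in middle-aged naïve libraries by 0.57 on the log2 scale (95% interval -1.04 to -0.112, edgeR adjusted p = 0.168), with overlapping libraries, and it passed only when middle-aged naïve 2 was left out (-0.87, adjusted p = 0.02). The intervals of the neurofilament subunits spanned 0, from -0.452 to 0.486 for Nefl.

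Within injured mice, 0 of 10 members passed with edgeR or DESeq2. With edgeR 1.15% of all genes passed, and 1 of 10 members had an unadjusted p under 0.05. That member was Syt1, lower in the middle-aged by 2.10-fold (log2 fold change -1.07, 95% interval -1.96 to -0.187, edgeR adjusted p = 0.338). Its 3 middle-aged injured libraries all lay below the 3 young injured libraries, and the libraries of Stmn2 also did not overlap, the middle-aged being higher (log2 0.24). Over all genes 23.3% did not overlap. Syt1 passed with no filter on low counts (adjusted p = 0.039), with only the injured libraries in the fit (adjusted p = 0.00556) and without middle-aged naïve 2 (adjusted p = 0.0219). Gap43 reached nearly the same level in both injured groups, 105 ± 9.67 and 106 ± 8.38 CPM (SD, n = 3), with an interval of the log2 difference from -0.41 to 0.448.

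The injury effect itself was not shown to differ between ages for any of the 10 members with edgeR or DESeq2. With edgeR 0.139% of all genes passed, and again 1 of 10 members, Syt1, had an unadjusted p under 0.05. The difference for Syt1 was -1.62 (log2, 95% interval -2.85 to -0.394, edgeR adjusted p = 0.329). It passed with no filter on low counts (adjusted p = 0.025), and without middle-aged naïve 2 it was -0.77 (adjusted p = 0.349). For Gap43 the difference was 0.59 (interval -0.0372 to 1.22, edgeR adjusted p = 0.542). The comparisons of age and of injury share libraries, so their values are not independent of each other.

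Library by library, the coefficient of variation of the members ran from 15.0% to 56.7% in the young naïve and from 5.68% to 27.6% in the young injured group. In the middle-aged it ran from 1.77% to 78.0% in naïve and from 7.62% to 38.7% in injured tissue. Young naïve 3 was the lowest of its group for 10 of 10 members, with a median deviation of -0.65 (log2) from the group mean over the members, and young naïve 1 was the highest for 9. In the middle-aged naïve group library 1 was the lowest for 8 members and library 2 the highest for 8. In the injured groups the median deviation of a library lay between -0.13 and 0.15 (log2). The 10 members together held 4997, 3733 and 2152 CPM in the young naïve libraries and 975 to 1221 CPM in the young injured libraries. Neuron-body markers followed the same order in the young naïve group, at 1840, 1394 and 1175 CPM in sum. Of the 15 further axonal genes, 9 were lowest in young naïve 3, among them the tubulin Tuba4a, which ran from 112 to 281 CPM, while the motor gene Kif5a was at 929 to 959 CPM in all 3. The 5 oligodendrocyte markers summed to 41860, 40031 and 44130 CPM. The part of unequal capture in these differences was not tested. Without young naïve 3, 9 members still changed with injury in young mice and Nefl stood at a log2 fold change of -2.70. The share of all genes that changed was not taken without that library, and was 54.6% with all libraries.

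**Figure D4:**
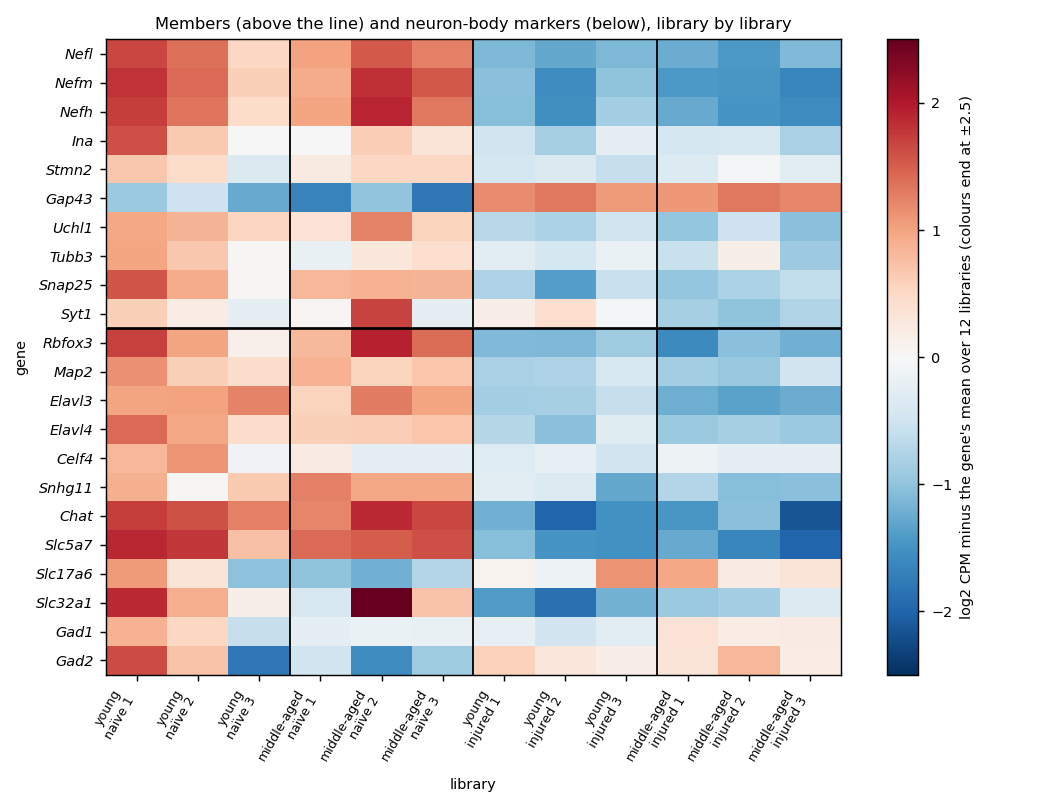
Log2 CPM of the members (above the line) and of 12 neuron-body markers (below it) in each library, as the difference from the gene's mean over the 12 libraries (red, higher; blue, lower; colours end at 2.5). Young naïve 3 is paler than young naïve 1 and 2 for most members, Gap43 is red in the 6 injured libraries, and Chat and Slc5a7 are blue in them.

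Other transcripts of axons and synapses were read from lists chosen by function. Of 15 further axonal genes, 14 were lower and 1 higher with injury at each age, with median log2 fold changes of -1.63 and -1.85. Kif5a, a kinesin motor of axonal transport, fell from 945 ± 15.2 to 266 ± 41.5 CPM (SD, n = 3) in young and from 1475 ± 114 to 339 ± 48.5 CPM in the middle-aged. Kif5c, a related motor, had log2 fold changes of -1.85 in young and -2.16 in middle-aged tissue, and Map1b, a microtubule-associated protein of axons, of -1.32 and -1.62. Stmn4, a relative of Stmn2, fell furthest (-2.29 and -3.14). The gene that rose, named after its values were seen, was Basp1, a growth-cone protein of the same functional class as Gap43, at 22.2 ± 1.15 CPM in young naïve and 90.8 ± 13.2 CPM in young injured tissue (log2 2.03 and 2.46). Kif5a and Kif5c were also the only genes of the list that differed with age in naïve mice, higher in the middle-aged by 0.64 and 0.56 (log2, edgeR adjusted p = 0.0163 and 0.026).

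Of 15 further synaptic genes, 12 were lower and 0 higher in young mice, and 13 lower and 1 higher in the middle-aged, with medians of -1.56 and -1.66. Cplx1, a complexin that clamps vesicle fusion, had log2 fold changes of -2.06 in young and -1.95 in middle-aged tissue. The vesicle proteins Sv2a (-1.85 and -2.17) and Sv2b (-2.38 and -2.52) and the vesicle SNARE Vamp1 (-2.24 and -2.18) also fell at both ages. The 1 higher gene, named after its values were seen, was Stx1a, at 0.449 ± 0.207 CPM in middle-aged naïve and 1.32 ± 0.441 CPM in middle-aged injured tissue. Its middle-aged libraries held only 2 to 7 counts in naïve and 10 to 21 in injured tissue, against a floor of 3 counts. In young mice Stx1a was not called (log2 0.71, edgeR adjusted p = 0.273). Syn1 and Cplx2 crossed the threshold with some other scalings, and no gene of the axonal or synaptic lists changed direction with any of the 4 other scalings or tools.

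Markers of neuronal cell bodies were present in the naïve white matter and most fell with injury. Of 12 such genes, 10 were lower in young mice and 0 higher, and in the middle-aged 8 were lower and 1 higher, with medians of -1.53 and -1.78. Map2, a microtubule protein of dendrites and cell bodies, fell from 846 ± 227 to 319 ± 50.9 CPM (SD, n = 3) in young mice, with log2 fold changes of -1.41 and -1.47 at the 2 ages. Elavl3, a neuronal RNA-binding protein, also fell (-1.82 and -2.23). Slc5a7, the choline transporter of motor neurons, was at 104 to 232 CPM in the naïve libraries and at 15.7 to 29.8 CPM in the injured libraries, with log2 fold changes of -2.89 and -3.12. Chat, the acetylcholine-synthesising enzyme, named after its values were seen, ran from 41.7 to 64.8 CPM in naïve and from 3.89 to 8.46 CPM in injured libraries, with a log2 fold change of -3.11 at both ages. The higher gene, also named after its values were seen, was Slc17a6, a glutamate transporter of excitatory neurons, with log2 fold changes of 0.12 in young (adjusted p = 0.837) and 1.52 in the middle-aged (adjusted p = 0.00918). Gad1 and Gad2, which make the transmitter of inhibitory neurons, had log2 fold changes of -0.73 (adjusted p = 0.0345) and -0.41 (adjusted p = 0.553) in young mice. In the middle-aged they were at 0.46 (adjusted p = 0.164) and 1.45 (adjusted p = 0.05, not called), and the injured libraries lay above the naïve libraries for both. Slc32a1, the vesicular transporter of inhibitory neurons, was lower in young mice, with a log2 fold change of -2.67 (edgeR adjusted p = 0.00886). In middle-aged mice Slc32a1 was at 6.05 to 85.4 CPM in naïve and at 4.15 to 6.30 CPM in injured libraries, which overlapped. The call for Gad1 in young mice was lost with scaling by library totals, and Gad2 was called higher in the middle-aged with library totals, with RLE factors and with DESeq2 (log2 1.47 to 1.55). The sum of the 12 markers ran from 1175 to 1840 CPM in naïve and from 405 to 562 CPM in injured libraries, so it fell together with the members, and the part of neuronal cell bodies in the members' fall was not tested.

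Of 7 genes known to be induced in neurons by axon injury, 5 were higher in young and 6 in the middle-aged, and 0 were lower. With the genes that had 0 counts in every naïve library of that age placed at their lower bound, 2 in young mice and 1 in the middle-aged, the median log2 fold changes were 3.60 and 3.69. Atf3, a stress transcription factor that is not restricted to neurons, went from 1.19 ± 0.242 to 124 ± 1.15 CPM (SD, n = 3) in young and from 4.44 ± 1.98 to 175 ± 17 CPM in the middle-aged. Sox11, a transcription factor of axon growth, rose by 1.32 and 1.73 on the log2 scale. Sprr1a, a small proline-rich protein of regenerating axons, had 0 counts in the 3 young naïve libraries and 67 to 113 in the young injured libraries, at least 65.5-fold higher when 3 counts over the naïve group are taken as the floor. Gadd45a, a stress-response gene, was higher in middle-aged mice (log2 1.28, adjusted p = 3.13e-05), and in young mice its value was 0.30 (adjusted p = 0.175, and 0.035 with scaling by library totals). Ecel1, named after its values were seen, was not called in young mice (log2 -0.40, edgeR adjusted p = 0.19), the lowest value of the list. In the middle-aged it was at 9.59 ± 1.49 CPM in naïve and 7.67 ± 2.23 CPM in injured tissue. Which cells held the Atf3 and Gap43 transcripts was not tested.

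**Figure D5:**
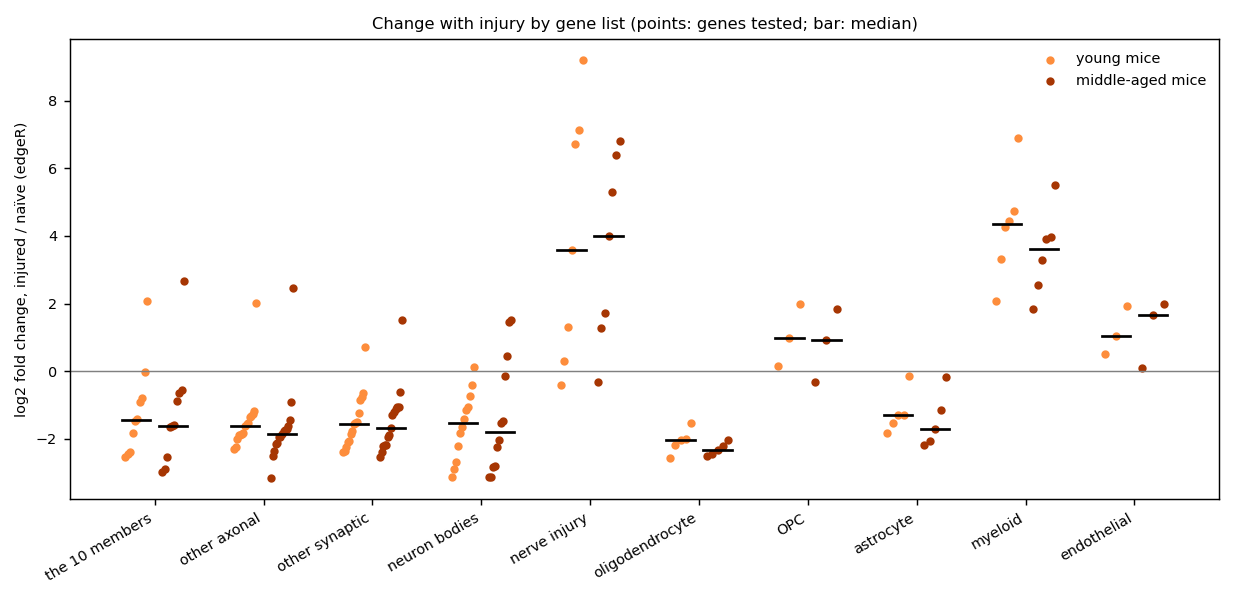
Log2 fold change with injury of the tested genes of each list, by age (points, genes; bars, medians). The other axonal and synaptic lists centre between -1.56 and -1.85 like the members, oligodendrocyte genes lie below -1.5 and myeloid genes above 1.8, and the topmost nerve-injury points of young mice are fitted values of genes with 0 counts in the young naïve libraries, which depend on the prior count.

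The captured tissue changed in its other cell types at the same time. The 5 oligodendrocyte markers read were all lower at both ages, and their sum fell from between 40031 and 44130 CPM to between 10260 and 10431 CPM in young mice and from between 26885 and 32588 CPM to between 4556 and 7097 CPM in the middle-aged. The log2 fold changes of the myelin genes were -2.0 and -2.5 for Mbp, -2.17 and -2.20 for Cnp, -2.03 and -2.34 for Mobp and -2.56 and -2.44 for Mog in young and middle-aged tissue. All 6 myeloid markers were higher, their sum rising from 71.8 to 102 CPM in young naïve to 1373 to 1394 CPM in young injured libraries and from 110 to 147 CPM to 1461 to 1950 CPM in the middle-aged. Cd68, a lysosomal protein of phagocytes, rose by 6.90 and 5.5 (log2), Tyrobp, a myeloid signalling adaptor, by 4.26 and 3.29, and Csf1r, a macrophage growth factor receptor, by 2.08 and 1.84. Of 5 astrocyte markers 4 were lower at both ages, with Aqp4, Slc1a2, Gja1 and Slc1a3 between -1.14 and -2.17, and of 3 endothelial markers Pecam1 and Cdh5 were higher at both ages (log2 1.06 to 1.98) while Cldn5 was not called, except with scaling by library totals in young mice. Of 3 progenitor markers Pdgfra and Cspg4 were higher at both ages (log2 0.94 to 1.99) while Gpr17 was not called. Of the myelinating Schwann cell genes read, Prx had 34 counts in young injured 1 and 1 to 11 counts in each of the other libraries, too few to be tested, and Ncmap had 2 to 35 counts and was not called at either age. The part of these shifts in the members' values, which are shares of all RNA captured, was not tested.

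Over the 12 libraries Nefm and Nefh had the closest profiles among the members, with a root mean square difference of 0.112 in centred log2 CPM, and Nefl was nearest to Nefh at 0.208. Ina and Tubb3 were nearest to each other (0.306), and Gap43 was far from all others, its nearest being Stmn2 at 1.58. Among 13075 other genes, the nearest to the mean profile of Nefl, Nefm, Nefh and Ina were Nat8l (0.134), Lrrc49 (0.142), Syt2 (0.149), Slc12a5 (0.152) and Ndrg4 (0.155). Their log2 fold changes with injury were -2.03 to -2.15 in young and -2.14 to -2.42 in middle-aged tissue. For single members the nearest genes were Cables2 for Stmn2 (0.120), Acly for Uchl1 (0.120), Ciapin1 for Tubb3 (0.180), Kpna2 for Gap43 (0.254) and Pld5 for Syt1 (0.319). These distances describe 12 libraries that share the 4 groups and carry no test.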

How the data were processed

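RNA sequencing data of 12 libraries were used as deposited: whole-number counts of reads per gene, not normalised. Per the labels and the study's methods, the authors checked reads with FastQC 0.11.4, mapped them to GRCm38 with TopHat2 2.0.10 and Bowtie 1.1.2 and made the counts with featureCounts; the annotation release, strand setting and treatment of shared reads were not given in the sources used here. The count table gave 46078 Ensembl genes, of which 98% matched a symbol.

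Groups came from the sample labels. Genes were kept by filterByExpr, scaled by TMM and fitted with edgeR 4.0.16 (R 4.3.3) by quasi-likelihood F tests over all 12 libraries, each group having its own coefficient. Benjamini-Hochberg adjustment ran over all 15866 genes, with a threshold of 0.05. A second fit used the Nefl plus Nefm counts as library size. Log2 CPM used a prior count of 2. RPKM used exonic lengths of GENCODE M21. The TMM edgeR fit was tested on simulated counts for injury in young mice only, and the other comparisons and fits were not. Other settings were RLE, upper quartile and no scaling factors, DESeq2 1.42.0, 2 other filters, a replicate block, only the libraries compared, and each library left out in turn.

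The members and gene lists were chosen with earlier results of these data known. From each other list the 3 genes with the highest mean CPM and the gene with the largest injury fold change were named, and genes of like profile by root mean square difference among genes with a mean log2 CPM of at least 1. Some genes of the lists and of the likeness ranking are not reported here.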

Additional observations from a re-analysis of the deposited data

How the results depend on the processing

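The falls of Nefl, Nefm, Nefh, Uchl1 and Snap25 and the rise of Gap43 with injury kept their direction and their call at both ages in each of 20 other settings. With each library left out in turn, 8 to 9 members were called in young injury and 7 to 10 in middle-aged injury. For age, 0 to 1 were called in naïve mice and 0 to 1 in injured mice. For the difference of injury effects 0 were called, and relative to neurofilament RNA 6 to 7 at each age. The shares of all genes called were not taken for these fits or for the replicate block. With all libraries they were 54.6% and 58.5% for injury, 3.80% and 1.15% for age and 0.139% for the difference. Relative to neurofilament RNA 89.3% and 89.5% of all genes were called higher. With no filter on low counts 1 member, Syt1, was called for age in injured mice and 1, also Syt1, for the difference of injury effects, and with only the libraries compared 1 was called for age in injured mice (Syt1). Scaling by library totals alone put the median of all genes at 0.197 (log2) in young injury, against 0.000542 with TMM, and raised the share of calls that were higher in young injury from 51.8% to 62.4%. It turned the sign of 2 values that did not pass the test, Syt1 in young injury (0.17) and Gap43 for age in injured mice (-0.040).

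Leaving out libraries turned the sign of values that had not passed the test, and none passed it after turning. With all libraries the largest of them were 0.55 for Syt1 by age in naïve mice and, for the difference of injury effects, 0.53 for Ina and 0.35 for Tubb3. For age in naïve mice the ranges were -0.25 to 0.27 for Nefl, -0.14 to 0.42 for Nefm, -0.099 to 0.50 for Nefh, -0.15 to 0.31 for Stmn2, -0.34 to 0.14 for Uchl1, -0.43 to 0.30 for Snap25 and -0.31 to 0.88 for Syt1. For age in injured mice they were -0.14 to 0.0066 for Nefl, -0.18 to 0.13 for Ina, -0.031 to 0.094 for Gap43, -0.43 to 0.14 for Tubb3 and -0.12 to 0.27 for Snap25. For the difference of injury effects they were -0.35 to 0.17 for Nefl, -0.013 to 0.83 for Ina, -0.074 to 0.39 for Stmn2, -0.33 to 0.17 for Uchl1, -0.0074 to 0.58 for Tubb3 and -0.22 to 0.51 for Snap25. In young injury Syt1 ran from -0.21 to 0.21, and Nefh relative to neurofilament RNA from -0.037 to 0.18. The cause was not tested.

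With the replicate block, 9, 9, 0, 0 and 0 members were called in the 5 comparisons, as without it, and 6 and 7 relative to neurofilament RNA. Same-numbered libraries correlated between -0.113 and 0.153 in their deviations from the group means, so the numbers were not taken to pair samples. With 3 libraries per group the intervals given were wide, so a member that did not pass the test was not shown to be unchanged. Where a library was left out, its group kept 2 libraries.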
